A study of Mus musculus with 12 samples.

Results

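Cortical projection neurons of layer 3 were compared between postnatal day 7 (P7) and postnatal day 3 (P3) in wild-type mice. The comparison used 6 RNA libraries, 3 at each age, out of 12 in the series. The other 6 came from layer 2 neurons at the same ages and served to ask where layer 3 differed. All genes that reached a level of 1 TPM (transcripts per 1000000) in at least 3 of the 6 layer 3 libraries were examined, which left 16176 of the 56734 genes in the table. Neither age was a treatment, and the labels give no strain, sex or cortical area. All 4 groups, P7 and P3 of layer 3 and P7 and P3 of layer 2, are described with the same handling. The neurons were given the red fluorescent protein mCherry by electroporation in utero, microdissected, and collected by fluorescence-activated sorting, and each library pooled 2 to 3 pups. Labelling in utero reaches the cells born near the time of electroporation, so each group is a birth-dated subset of its layer rather than the whole layer. Library names carry the number 14 for layer 3 and 15 for layer 2, whose meaning is not stated. What the number denotes cannot be told apart from layer.

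Callosal and other intracortical projection neurons of the upper layers finish migrating around and shortly after birth in the mouse. In the first postnatal week they extend axons and dendrites, and toward its end they begin to form synapses in number. In this period cortical neurons are known to change receptor subunits, to raise the chloride exporter that makes GABA inhibitory, and to turn down genes of growth and migration. RNA was made into libraries with a kit for polyadenylated RNA at low input. Levels are given in TPM, which is scaled to transcript length and to a fixed total per library, so a level is a share of the measured RNA. A rise in some genes therefore lowers the shares of others. Read depth is not kept in TPM, so the depth of each library and the counting error of each value are unknown.

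Fold changes are the difference between the ages of the means of log2(TPM + 1), P7 minus P3, and understate the change of genes at low level. A gene was called when limma's moderated test gave an adjusted p under 0.05 over all 16176 genes. Where a gene is said to rise by a value, the value is its log2 fold change. Values after ± are standard errors for log2 fold changes and SDs of 3 libraries for TPM. With 3 libraries at each age the smallest two-sided p of an exact permutation test is 0.1, so the calls rest on the model. The replicates are separate pools of pups, and no litter or batch is given.

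The sorted cells carried markers of cortical projection neurons at both ages. Cux2, a homeobox gene of the upper layers, stood at 30.1, 28.1 and 24.7 TPM at P7 and 48.9, 52.5 and 45.4 TPM at P3. Bcl11b, which marks subcerebral neurons of the deep layers, was at or under 5.95 TPM in all 6 libraries (5.42, 2.96 and 2.11 TPM at P7 and 2.51, 5.95 and 2.06 TPM at P3), and Fezf2 reached at most 13.9 TPM. Rorb, a regulator known from layer 4, was present at 46.02, 55.4 and 80.6 TPM at P7 and 26.9, 60.9 and 80.4 TPM at P3, with overlapping ranges. Tbr1, a factor best known from layer 6 and early projection neurons, stood at 40.5, 50.9 and 40.99 TPM at P7 and 33.8, 47.02 and 29.96 TPM at P3, above Cux2 in every P7 library and below it in every P3 library. Slc17a7, the vesicular glutamate transporter of cortical excitatory neurons, reached at least 279 TPM in every P7 library. The markers were thus those of projection neurons, low in Bcl11b and Fezf2 but not in Tbr1, and no marker in the list separates layer 3 from its neighbours.

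Transcripts of other cells were present in every library, and 1 library of each age stood apart in them. Summed over the 13 tested oligodendrocyte lineage markers and Mobp, the libraries held 1479, 306 and 147 TPM at P7 and 131, 349 and 121 TPM at P3. P7 replicate 1 was the highest, with 462 TPM of the myelin gene Mbp (462, 82.5 and 34.2 TPM at P7 and 35.1, 67.7 and 30.3 TPM at P3) and 65.0 TPM of Mobp, which was 0 in all P3 libraries. The 15 astrocyte markers summed to 3025, 2232 and 1171 TPM at P7 and 2196, 2413 and 3129 TPM at P3, and Aqp4, the astrocyte water channel, stood at 85.8, 19.9 and 14.1 TPM at P7 and 1.76, 18.1 and 3.85 TPM at P3. The 11 markers of choroid plexus and meninges summed to 18.9, 14.7 and 17.3 TPM at P7 and 509.7, 60.4 and 38.99 TPM at P3. P3 replicate 1 was the highest there, with 234 TPM of Ttr, the choroid plexus transthyretin, which was at most 2.15 TPM in the other 5 libraries. Microglia markers summed to 2645, 2298 and 862 TPM at P7 and 1349.8, 2333 and 2581 TPM at P3, and interneuron markers to 489, 157 and 216 TPM at P7 and 228, 324 and 339 TPM at P3, with Pvalb at 0 in all 6. In bulk libraries fewer cells of a type and less RNA per cell cannot be told apart. Values without P7 replicate 1 and P3 replicate 1 are given below where the calls turn on them.

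**Figure D1:**
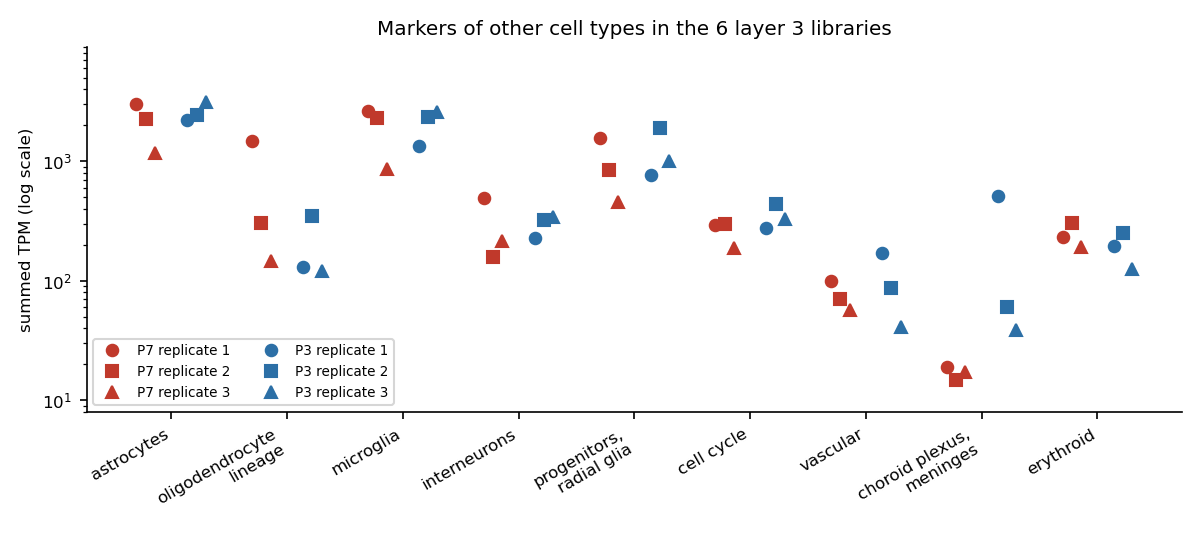
Summed TPM (log scale) of the marker lists of 9 other cell types or states in each of the 6 layer 3 libraries, P7 in red and P3 in blue, with 1 symbol per replicate. Oligodendrocyte markers stand highest in P7 replicate 1, and choroid plexus and meningeal markers in P3 replicate 1, while microglia, interneuron and cell cycle markers overlap between the ages.

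The markers of astrocytes and those of choroid plexus and meninges gave 4 calls each. Over all tested genes 16.0% were called higher and 7.14% lower. Here 4 of 15 astrocyte markers were higher at P7 (Slc1a2, Clu, Gfap and Aqp4) and none was lower, with a median log2 fold change of 0.86, against 0.18 for all tested genes. The call of Aqp4 was lost without P7 replicate 1, P3 replicate 1 or P3 replicate 3 (1.49 to 2.05, adjusted p = 0.107 to 0.154). With both libraries that stood apart left out, 2 astrocyte markers were called higher. Of 13 oligodendrocyte lineage markers 1 was called higher (Lhfpl3), and the count was 0 without P7 replicate 1, 7 without P7 replicate 3 and 3 without P3 replicate 2. The Lhfpl3 call was lost without P7 replicate 1 (0.89, adjusted p = 0.0577). No microglia marker of 15 and no erythroid marker of 5 was called, and the count of microglia markers called higher was 1 without P7 replicate 3. Among 6 choroid plexus and meningeal markers 4 were lower at P7 (Igf2, Col1a1, Col1a2 and Dcn), with a median of -2.04. The call of the collagen gene Col1a2 was lost without P7 replicate 2 (-1.91, adjusted p = 0.0565). Without P3 replicate 1 the log2 fold changes were -1.39, adjusted p = 0.0234 for Col1a1, -1.27, adjusted p = 0.0378 for Col1a2 and -1.22, adjusted p = 0.0331 for Dcn. Among 9 vessel markers Rgs5 was called higher and Vtn lower. The Vtn call was lost without P7 replicate 2, P7 replicate 3 or P3 replicate 1 (-1.93 to -1.03, adjusted p = 0.112 to 0.191), and the Rgs5 call without P3 replicate 1 (1.45, adjusted p = 0.0502). Vessel markers called higher numbered 4 without P3 replicate 2. Of 12 interneuron genes Calb2 was called higher and Npy lower, and neither Gad1 (23.2, 3.81 and 10.6 TPM at P7 and 2.76, 4.82 and 4.39 TPM at P3) nor Gad2 was called. Interneuron genes called higher numbered 2 without P7 replicate 2, 3 without P7 replicate 3 and 3 without P3 replicate 2. None of 4 tested sex-linked genes was called in layer 3, and 1 was called higher there without P3 replicate 2. In layer 2, 3 of the 4 were called higher at P7.

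Between P3 and P7, 2586 genes rose (16.0% of those tested) and 1155 fell (7.14%), while 12435 were not called. Among the called genes the TPM ranges of the ages did not overlap for 2511 that rose and 1100 that fell. Ranges apart alone were met by 24.3% of tested genes in the higher direction and by 11.8% in the lower. The filter was passed through the P7 libraries alone by 190 genes and through the P3 libraries alone by 70, and such genes had to differ. Of those named here these are Cbln4, Dapk2, Hapln1, Kcnc4 and Otof at P7, and A830036E02Rik, Cfap126 and Gm49719 at P3. Of the genes that rose, 1178 did so by at least 1 on the log2 scale and 169 by at least 2. Of those that fell, 302 did so by at least 1 and 38 by at least 2. The libraries of an age correlated at 0.958 to 0.976 (P7) and 0.960 to 0.970 (P3), and those of different ages at 0.911 to 0.956.

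The balance between rises and falls depended on the scaling. The median log2 fold change of all tested genes was 0.18, and 69.1% of called genes were higher. Median-ratio scaling brought that median to 0.002 and gave 1756 genes higher and 1784 lower, or 49.6% higher. Quantile normalization gave 1790 higher and 1830 lower. Changes are therefore to be read relative to the shift of 0.18. Among the genes named here, median-ratio scaling ended the calls of Calm2, Celf6, Cyp39a1, Grin2a, Hmgcs1, Klf13, Ldb2, Map6, Ndfip1, Nova1, Plxnd1, Scn3a, Slc12a2, Smarca2 and Unc5d. Quantile normalization ended those of Celf6, Cyp39a1, Grin2a, Kcnh5, Klf13, Klf16, Ldb2, Map6, Nova1, Plxnd1, Rora, Scn3a, Slc12a2, Smarca2, Tmsb4x, Tuba1a, Unc5d, mt-Atp6 and mt-Atp8. Both scalings called 1 gene lower among the glutamate receptors, among the sodium and calcium channels, among the modulator receptors and among the Krüppel-like factors, and 2 among the presynaptic genes. The counts also moved with single libraries. Without P3 replicate 2 they were 3895 higher and 1422 lower. They were 1621 higher and 765 lower without P3 replicate 1, and 1191 higher and 620 lower without both libraries that stood apart. Of these last, 1149 and 540 were among the calls made on all libraries. Leaving out both, but no single library, ended the calls of Atp5e, Camk4, Cry2, Cux1, Dclk1, Dcn, Dnmt3a, Efna4, Efna5, Egr1, Elavl3, Ephb3, Gfap, Hes1, Htr7, Mapt, Ntng2, Pcp4, Pfkp, Rps24-ps3, Scn1a, Scn3a, Scn8a and Tef. It also ended those of Adgrl2, Aqp4, Celf6, Cfap126, Cntn2, Cplx2, Cyp39a1, Dbp, Dlgap4, Dpf1, Dynlrb2, Gabrg3, Grin2a, Hapln1, Hmgcs1, Kcnh5, Ldb2, Lhfpl3, Map6, Mvk, Ndufs1, Nova1, Ptgds, Rgs5, Rora, Slc12a2, Slc6a13, Smarca2, Srrm4, Tuba1a, Ube2c, Unc5d, Vim, Vtn and mt-Nd2, which single libraries ended too.

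The largest rises were in genes of vesicle content, of secreted and matrix proteins, and in 1 noncoding RNA. Snhg11, a neuronal long noncoding RNA that hosts small nucleolar RNAs, stood at 563, 479 and 357 TPM at P7 and 3.97, 17.3 and 31.6 TPM at P3 (log2 fold change 5.0 ± 0.49, adjusted p = 2.75e-05). Slc30a3, which loads zinc into glutamatergic vesicles, stood at 109, 87.95 and 89.6 TPM at P7 and 4.005, 4.83 and 3.92 TPM at P3 (log2 fold change 4.2 ± 0.36, adjusted p = 9.94e-06). Cartpt, the precursor of the neuropeptide CART, stood at 26.7, 43.4 and 42.9 TPM at P7 and 1.74, 2.02 and 0.553 TPM at P3 (log2 fold change 4.01 ± 0.37, adjusted p = 1.91e-05). In all of these every P7 library was above every P3 library by a wide margin. Gpr6, an orphan receptor coupled to the cyclic AMP-raising G protein, stood at 28.1, 39.7 and 48.2 TPM at P7 and 1.49, 2.12 and 0.959 TPM at P3 (log2 fold change 3.97 ± 0.25, adjusted p = 1.06e-06). Npnt, which encodes the matrix protein nephronectin, stood at 53.2, 56.8 and 50.96 TPM at P7 and 1.96, 4.64 and 2.48 TPM at P3 (log2 fold change 3.82 ± 0.23, adjusted p = 8.04e-07). Ccn3, a secreted matricellular protein, stood at 252, 375 and 348 TPM at P7 and 37.6, 35.6 and 17.8 TPM at P3 (log2 fold change 3.43 ± 0.25, adjusted p = 2.96e-06). The ranges of the ages did not overlap in these genes, and the P7 libraries lay closest together in Npnt. Slc22a3, an organic cation transporter, stood at 15.2, 14.1 and 21.4 TPM at P7 and 0.487, 1.05 and 0.469 TPM at P3 (log2 fold change 3.42 ± 0.42, adjusted p = 0.000132). Pdyn, the precursor of dynorphin peptides, stood at 19.4, 16.8 and 23.05 TPM at P7 and 0.244, 2.03 and 1.05 TPM at P3 (log2 fold change 3.38 ± 0.31, adjusted p = 1.91e-05). Both were near 1 TPM or below in most P3 libraries. Car10, a secreted carbonic anhydrase-related protein that binds neurexins, rose by 3.32 ± 0.38 and Cpne8, a calcium-dependent phospholipid-binding copine, by 3.29 ± 0.25. Cacng3 and Nefl, described with their families, complete the 12 largest rises.

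**Figure D2:**
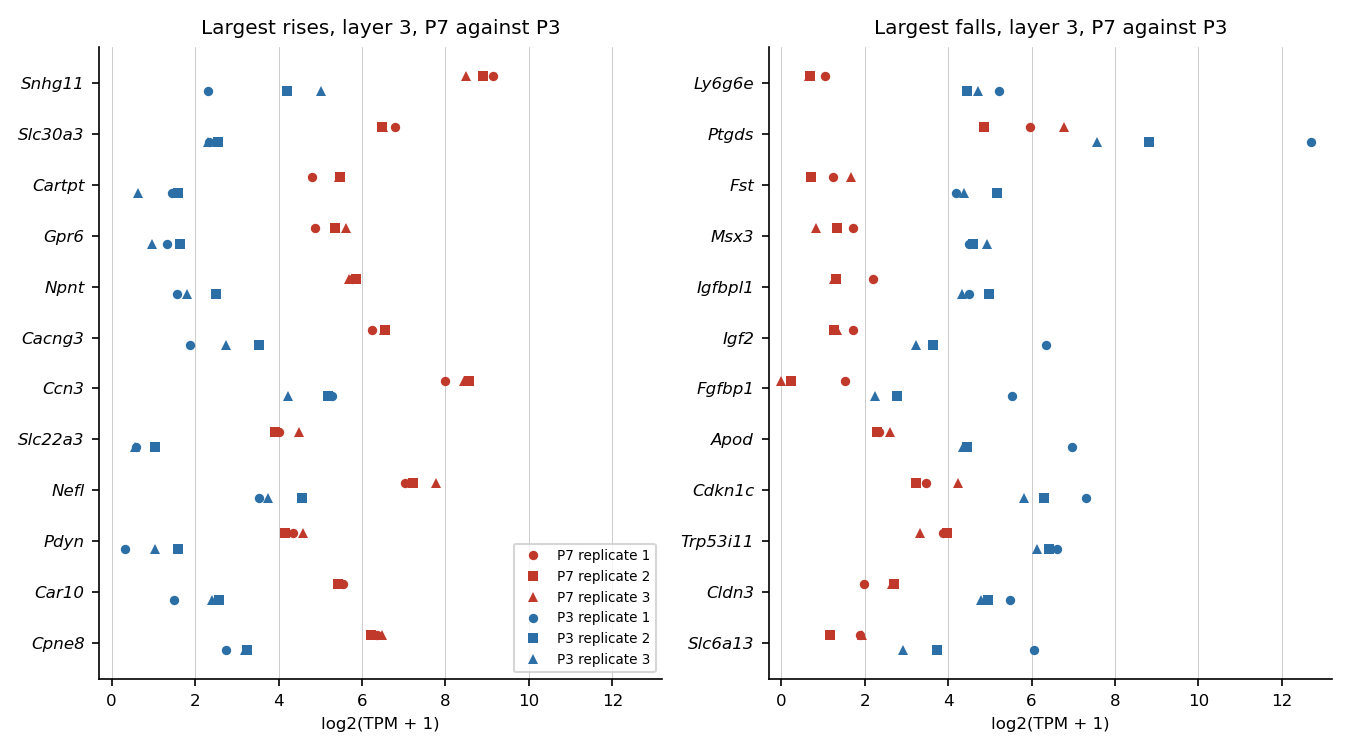
Levels as log2(TPM + 1) of the 12 genes with the largest rises and the 12 with the largest falls in layer 3, P7 in red above P3 in blue, with 1 symbol per replicate. P7 and P3 do not overlap in any of them, and for Ptgds, Igf2, Fgfbp1, Apod and Slc6a13 P3 replicate 1 stands well above the other P3 libraries.

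Counted in TPM, the gains lay in abundant neuronal transcripts. Calm2, which encodes calmodulin, stood at 8577, 9465 and 10298 TPM at P7 and 5357, 5931 and 6947 TPM at P3 (log2 fold change 0.64 ± 0.13, adjusted p = 0.00344). Snap25, a SNARE protein of vesicle fusion, stood at 1193, 1283 and 1468 TPM at P7 and 259, 387 and 351 TPM at P3 (log2 fold change 2.0 ± 0.16, adjusted p = 4.95e-06). Nrgn, a calmodulin-binding protein of dendritic spines, stood at 1456, 1814 and 1808 TPM at P7 and 918, 560.3 and 843 TPM at P3 (log2 fold change 1.15 ± 0.22, adjusted p = 0.00224). Each of these had its lowest P7 library above its highest P3 library. Cpe, the carboxypeptidase that matures neuropeptides, rose by 1.15 ± 0.16. Ndfip1, an adaptor of ubiquitin ligases, rose by 0.4 ± 0.10, and its call was lost without P7 replicate 2 or P7 replicate 3 (0.36 to 0.37, adjusted p = 0.0561 to 0.0616). The nuclear noncoding RNA Malat1 rose to 5898, 758 and 2424 TPM at P7, against 311, 488 and 230.0 TPM at P3 (log2 fold change 2.75 ± 0.55, adjusted p = 0.00348), with a wide spread among the P7 libraries.

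Promoters of 3 genes that rose are shown because each holds the palindrome bound by the cyclic AMP response element binding protein CREB, a factor known to act in neuronal activity. These are Gpr6, Cartpt and Scg2, a granin precursor described with the neuropeptides. The sequences are from RefSeq on GRCm38.p6, 250 bases before to 50 after the start, on the minus strand, at chr10:41072241-41072540, chr13:99900634-99900933 and chr1:79439977-79440276, with the palindrome in capitals.
Gpr6: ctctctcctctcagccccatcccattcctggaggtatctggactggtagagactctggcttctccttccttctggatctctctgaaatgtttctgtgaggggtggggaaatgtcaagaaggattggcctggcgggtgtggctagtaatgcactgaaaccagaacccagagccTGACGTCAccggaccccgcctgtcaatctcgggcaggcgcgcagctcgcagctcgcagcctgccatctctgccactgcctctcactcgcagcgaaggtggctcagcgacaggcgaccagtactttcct
Cartpt: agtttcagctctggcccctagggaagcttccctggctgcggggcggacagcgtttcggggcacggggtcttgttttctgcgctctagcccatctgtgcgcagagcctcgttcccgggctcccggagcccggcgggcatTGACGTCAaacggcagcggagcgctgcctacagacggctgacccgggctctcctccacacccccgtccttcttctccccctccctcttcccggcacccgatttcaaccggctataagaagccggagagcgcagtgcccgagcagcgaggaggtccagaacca
Scg2: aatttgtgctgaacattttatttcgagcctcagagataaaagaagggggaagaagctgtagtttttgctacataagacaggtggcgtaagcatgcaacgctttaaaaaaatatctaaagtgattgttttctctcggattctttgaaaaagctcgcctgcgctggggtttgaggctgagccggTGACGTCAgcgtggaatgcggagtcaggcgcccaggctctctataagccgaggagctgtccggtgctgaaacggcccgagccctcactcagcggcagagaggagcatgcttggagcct
The motif TGACGTCA, which reads the same on both strands, began 78 bases before the start in Gpr6, 112 in Cartpt and 68 in Scg2. Over the 10974 tested genes with a promoter in the table (the first listed start of each), it was found in 4.55% of 1912 that rose, in 2.25% of 755 that fell and in 2.97% of 8307 that were not called. In all 27025 promoters of the table its share was 1.88%. These shares describe letters in a window and say nothing of binding. The 3 promoters were chosen after the values were seen.

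Genes of transmitter release rose together. As for all lists here, the members were chosen with earlier results of these data known, so the counts are a description. Of 30 listed genes of the presynaptic terminal 20 were higher at P7 and 1 was lower, against 16.0% and 7.14% of all tested genes. The counts of the lists below are to be read against the same shares. Their median log2 fold change was 0.84, against 0.18 for all. Their summed level was 9326, 9391 and 10353 TPM at P7 and 4270.3, 4773 and 4503 TPM at P3, without overlap. Slc17a7 stood at 342, 279 and 342 TPM at P7 and 29.8, 34.99 and 35.3 TPM at P3 (log2 fold change 3.22 ± 0.17, adjusted p = 6.47e-07). Syn2, a synapsin that tethers vesicles, stood at 149, 131 and 132 TPM at P7 and 17.98, 22.8 and 15.9 TPM at P3 (log2 fold change 2.81 ± 0.17, adjusted p = 9.48e-07). Sv2b, a vesicle glycoprotein, stood at 84.6, 79.97 and 94.2 TPM at P7 and 5.32, 15.999 and 8.21 TPM at P3 (log2 fold change 3.13 ± 0.29, adjusted p = 2.06e-05). All P7 libraries lay above all P3 libraries in these, and Slc30a3 and Snap25 belong to the same list. Slc17a6, the vesicular glutamate transporter used earlier in development, stood at 64.9, 76.1 and 76.98 TPM at P7 and 49.2, 69.7 and 52.8 TPM at P3 and was not called (log2 fold change 0.35 ± 0.22, adjusted p = 0.259), so both transporters were expressed and Slc17a7 was the more abundant at P7. Cplx2, a complexin that clamps and promotes fusion, was the 1 member that fell, at 61.2, 60.8 and 64.7 TPM at P7 and 95.6, 78.1 and 103 TPM at P3 (log2 fold change -0.55 ± 0.15, adjusted p = 0.0159). Its call was lost without P3 replicate 3 (-0.47, adjusted p = 0.0708).

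On the receiving side, 11 of 25 genes of the postsynaptic density rose and 2 fell, with a median of 0.57. Of all tested genes 16.0% rose and 7.14% fell, so the falls were near that share. Camk2a, the calcium- and calmodulin-dependent kinase of plasticity, stood at 91.3, 90.4 and 101 TPM at P7 and 10.99, 14.2 and 14.5 TPM at P3 (log2 fold change 2.75 ± 0.15, adjusted p = 6.73e-07). The scaffold gene Dlg1 stood at 28.1, 30.8 and 38.9 TPM at P7 and 6.58, 10.3 and 7.01 TPM at P3 (log2 fold change 1.92 ± 0.20, adjusted p = 3.39e-05). Dlgap2, which links such scaffolds to Shank proteins, stood at 13.5, 14.1 and 15.2 TPM at P7 and 3.18, 3.34 and 3.54 TPM at P3 (log2 fold change 1.81 ± 0.24, adjusted p = 0.00026). In all of these the P3 libraries were uniformly low and the ages did not overlap. Dlg3, another scaffold, rose by 1.39 ± 0.20. The scaffold genes Homer3 and Dlgap4 fell. Homer3 stood at 9.67, 4.37 and 4.48 TPM at P7 and 11.1, 17.2 and 12.1 TPM at P3 (log2 fold change -1.07 ± 0.31, adjusted p = 0.025), and its call was lost without P7 replicate 2, P7 replicate 3, P3 replicate 2 or P3 replicate 3 (-1.13 to -0.89, adjusted p = 0.0535 to 0.0908). Dlgap4 stood at 131, 128 and 134 TPM at P7 and 192, 169 and 161 TPM at P3 (log2 fold change -0.4 ± 0.12, adjusted p = 0.0246), and its call was lost without P7 replicate 1, P7 replicate 2, P7 replicate 3 or P3 replicate 1 (-0.42 to -0.33, adjusted p = 0.0566 to 0.0849). Members called lower numbered 0 without P7 replicate 2, 0 without P7 replicate 3, and 1 without P7 replicate 1, P3 replicate 1 or P3 replicate 3.

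Among 23 glutamate receptor and auxiliary genes 11 rose and none fell, with a median of 0.88. Cacng3, an auxiliary subunit that carries AMPA receptors to synapses, stood at 74.6, 92.9 and 91.7 TPM at P7 and 2.66, 10.6 and 5.71 TPM at P3 (log2 fold change 3.73 ± 0.33, adjusted p = 1.32e-05). The AMPA receptor subunit Gria3 stood at 37.2, 25.1 and 29.02 TPM at P7 and 6.31, 8.196 and 5.602 TPM at P3 (log2 fold change 2.02 ± 0.24, adjusted p = 9.8e-05). Its relative Gria4 stood at 41.02, 20.9 and 41.6 TPM at P7 and 4.22, 15.5 and 10.7 TPM at P3 (log2 fold change 1.76 ± 0.37, adjusted p = 0.00439). Cacng3 showed the largest change of the family. The kainate receptor subunit Grik1 stood at 14.2, 22.95 and 25.9 TPM at P7 and 0.982, 5.76 and 3.24 TPM at P3 (log2 fold change 2.48 ± 0.51, adjusted p = 0.00417). For the NMDA receptor, the mature subunit Grin2a rose to 4.28, 3.76 and 5.35 TPM at P7, against 1.896, 2.27 and 2.71 TPM at P3 (log2 fold change 0.73 ± 0.25, adjusted p = 0.0486). Grin2b, which dominates in immature neurons, stood at 15.04, 13.5 and 15.1 TPM at P7 and 8.04, 5.85 and 12.6 TPM at P3 and was not called (log2 fold change 0.72 ± 0.33, adjusted p = 0.129). Both log2 fold changes were alike in size, and Grin2b remained above Grin2a in TPM in every library of P7 and P3. The Grin2a call lay near the threshold and was lost when any single layer 3 library was left out (0.61 to 0.82, adjusted p = 0.0631 to 0.151). Leaving out both libraries that stood apart left 7 members called higher, in place of 11.

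**Figure D3:**
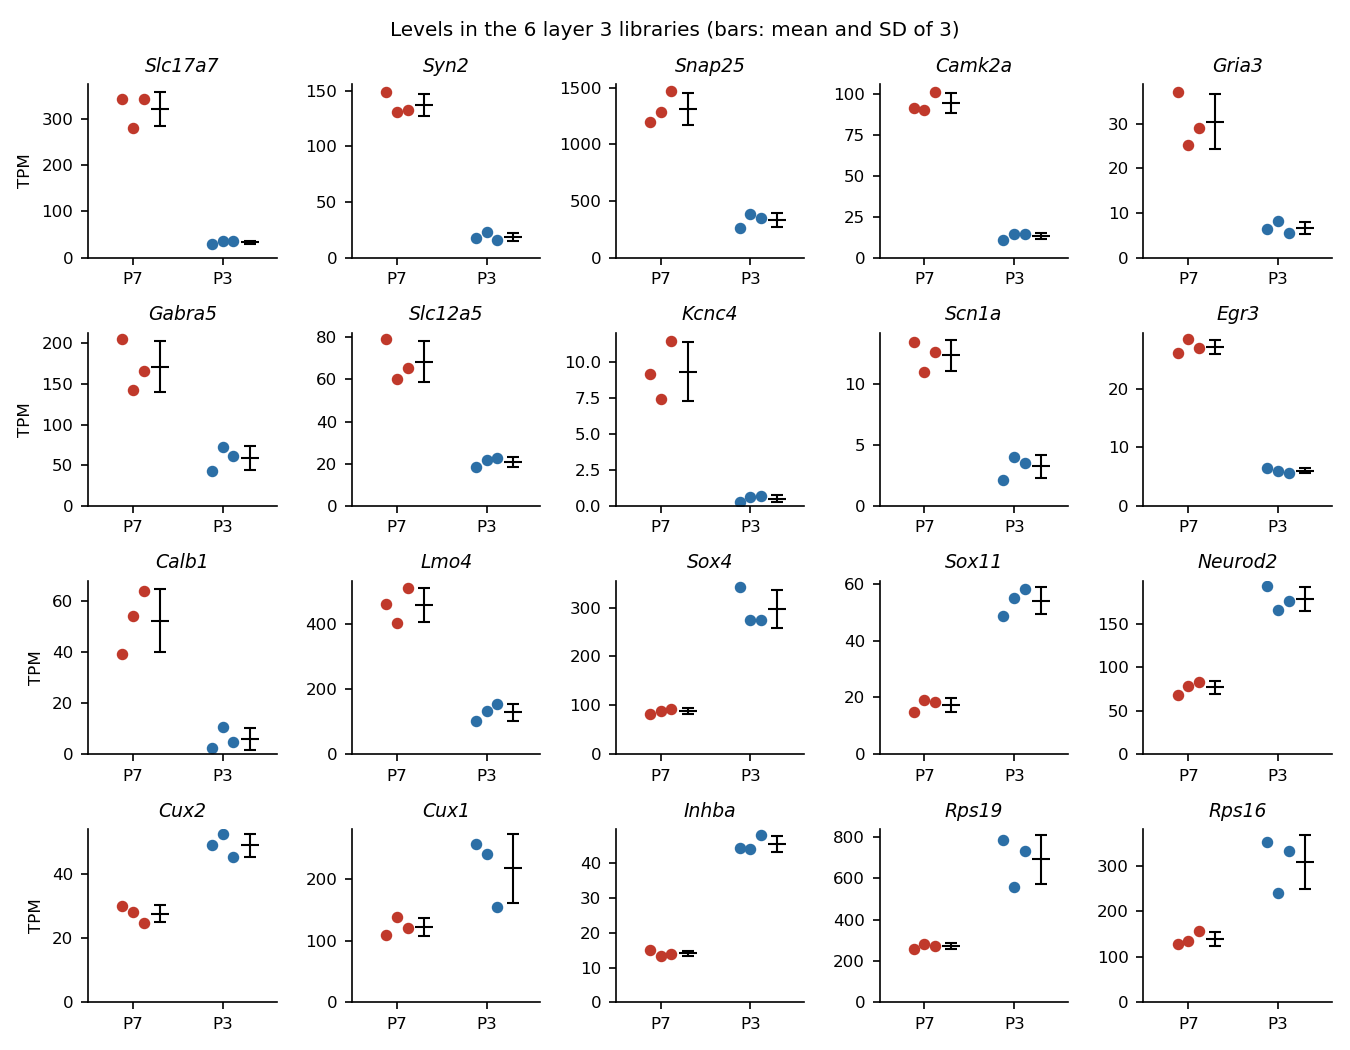
TPM of 20 genes in the 6 layer 3 libraries, P7 in red left of P3 in blue, with the mean and SD of 3 libraries as black bars. The first 12 panels, from Slc17a7 to Lmo4, show genes higher in every P7 library, and the last 8, from Sox4 to Rps16, genes lower in every P7 library.

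Genes of inhibitory input rose too. Of 16 GABA receptor and chloride transport genes 12 rose and none fell, with a median of 1.28, and all 16 had a positive log2 fold change. Their summed level was 1359, 1148 and 1321 TPM at P7 and 484, 736 and 587 TPM at P3. Slc12a5, the chloride exporter that makes GABA hyperpolarizing, stood at 79.1, 60.2 and 65.6 TPM at P7 and 18.3, 21.8 and 22.9 TPM at P3 (log2 fold change 1.65 ± 0.17, adjusted p = 3.22e-05). Slc12a2, the chloride importer of immature neurons, stood at 19.8, 14.2 and 14.9 TPM at P7 and 5.86, 12.6 and 9.08 TPM at P3 and also rose (log2 fold change 0.8 ± 0.27, adjusted p = 0.048). In every library the exporter was above the importer in TPM. The call of Slc12a2 was lost without P7 replicate 1, P7 replicate 2, P7 replicate 3, P3 replicate 1 or P3 replicate 3 (0.55 to 0.89, adjusted p = 0.0686 to 0.188). Among GABA-A receptor subunits, Gabra2 and Gabra3, known from younger neurons, rose, Gabra2 by 1.3 ± 0.26 and Gabra3 by 1.41 ± 0.20. Gabra5, a subunit of receptors outside synapses, stood at 205, 143 and 166 TPM at P7 and 42.5, 71.9 and 62.02 TPM at P3 (log2 fold change 1.54 ± 0.25, adjusted p = 0.000949). No subunit of the list was called lower while these rose. Gabrd, also of receptors outside synapses, rose by 1.57 ± 0.35. Gabrg3, a subunit expressed at low level, stood at 6.73, 4.83 and 2.43 TPM at P7 and 0.793, 1.09 and 0.228 TPM at P3 (log2 fold change 1.69 ± 0.42, adjusted p = 0.0113), and its call was lost without P7 replicate 1 or P3 replicate 3 (1.43 to 1.47, adjusted p = 0.0501 to 0.051).

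Of 32 synaptic adhesion genes 19 rose and 2 fell, against 16.0% and 7.14% of all tested genes, with a median of 0.83. The falls were near the share of all genes. Nrxn3, a presynaptic neurexin, stood at 25.4, 23.6 and 30.7 TPM at P7 and 1.08, 4.25 and 3.34 TPM at P3 (log2 fold change 2.92 ± 0.31, adjusted p = 4.7e-05). Lrrtm4, a postsynaptic partner of neurexins and heparan sulphate proteoglycans, stood at 59.1, 71.8 and 66.7 TPM at P7 and 6.15, 19.05 and 13.01 TPM at P3 (log2 fold change 2.4 ± 0.28, adjusted p = 9.73e-05). Slitrk3, which organizes inhibitory synapses, stood at 39.7, 33.1 and 35.5 TPM at P7 and 4.8001, 12.1 and 11.1 TPM at P3 (log2 fold change 1.93 ± 0.27, adjusted p = 0.000355). These were raised in all P7 libraries to a like degree. Cbln4, a secreted synapse organizer, differed more among the P7 libraries, at 2.97, 6.67 and 27.2 TPM at P7 and 0, 0.772 and 0.992 TPM at P3 (log2 fold change 2.64 ± 0.58, adjusted p = 0.00586). Cbln4 passed the filter through the P7 libraries alone. Ntng2, a netrin-G family member, and Adgrl2, a latrophilin, were the members that fell. Ntng2 fell by 1.13 on the log2 scale (adjusted p = 0.0115) and Adgrl2 by 0.84 (adjusted p = 0.0453). The Adgrl2 call was lost without P7 replicate 2, P7 replicate 3, P3 replicate 1, P3 replicate 2 or P3 replicate 3 (-0.92 to -0.69, adjusted p = 0.0745 to 0.142). Members called lower numbered 1 without P7 replicate 2, P7 replicate 3, P3 replicate 1, P3 replicate 2 or P3 replicate 3. Members called higher numbered 11 without both libraries that stood apart.

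Genes of electrical excitability rose as well. Of 44 potassium and HCN channel genes 24 rose and none fell, with a median of 0.75. Kcnc4, a voltage-gated potassium channel subunit, stood at 9.11, 7.38 and 11.4 TPM at P7 and 0.2402, 0.607 and 0.681 TPM at P3 (log2 fold change 2.77 ± 0.27, adjusted p = 2.81e-05). Kcnj9, a subunit of G protein-gated inward rectifiers, stood at 59.7, 51.4 and 70.1 TPM at P7 and 7.79, 15.9 and 10.8 TPM at P3 (log2 fold change 2.34 ± 0.30, adjusted p = 0.000204). The sodium-activated channel genes Kcnt2 and Kcnt1 rose by 2.33 ± 0.30 and 2.09 ± 0.22. Kcnc4 was under 1 TPM in every P3 library, and 2 members of the list, Kcnc4 among them, passed the filter through the P7 libraries alone. Of 21 sodium and calcium channel genes 12 rose and none fell, with a median of 0.81. Scn1a, a sodium channel of mature neurons, stood at 13.5, 10.95 and 12.6 TPM at P7 and 2.14, 4.004 and 3.55 TPM at P3 (log2 fold change 1.68 ± 0.36, adjusted p = 0.00506). Scn3a, the channel known from embryonic brain, stood at 25.6, 25.5 and 27.7 TPM at P7 and 13.7, 15.8 and 18.4 TPM at P3 (log2 fold change 0.69 ± 0.17, adjusted p = 0.0111) and remained above Scn1a in TPM in every library. Scn8a, a channel of the axon initial segment, rose by 1.13 ± 0.25, and the auxiliary subunit Scn2b by 1.16 ± 0.23. Quantile normalization called 7 sodium and calcium channel genes higher. Without both libraries that stood apart, 15 potassium and HCN channel genes and 4 sodium and calcium channel genes were called higher.

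Of 20 calcium signalling genes 14 rose and none fell, with a median of 0.87. Itpka, a kinase of inositol phosphates in dendritic spines, stood at 68.1, 43.4 and 53.9 TPM at P7 and 10.3, 9.94 and 5.11 TPM at P3 (log2 fold change 2.6 ± 0.24, adjusted p = 2.06e-05). Ncald, a neuronal calcium sensor, stood at 348, 331 and 341 TPM at P7 and 68.5, 134 and 88.4 TPM at P3 (log2 fold change 1.86 ± 0.20, adjusted p = 5.49e-05). Atp2b4, a plasma membrane calcium pump, rose by 1.36 ± 0.23. Camk4, a nuclear calcium-dependent kinase, rose by 1.34 ± 0.27.

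Receptors for modulators and precursors of peptides followed the same direction. Of 25 receptors for monoamines, acetylcholine, peptides and other modulators 14 rose and none fell, with a median of 1.04. Of all tested genes 16.0% rose and 7.14% fell. Of the 25 receptors, 2 passed the filter through the P7 libraries alone and had to differ. Adrb1, a receptor for noradrenaline, stood at 18.8, 19.7 and 19.5 TPM at P7 and 5.79, 4.32 and 1.81 TPM at P3 (log2 fold change 2.13 ± 0.30, adjusted p = 0.00035). Sstr2, a receptor for somatostatin, stood at 70.4, 58.3 and 65.7 TPM at P7 and 14.9, 17.9 and 15.2 TPM at P3 (log2 fold change 1.95 ± 0.22, adjusted p = 7.09e-05). Chrm3, a muscarinic acetylcholine receptor, stood at 6.54, 7.82 and 11.4 TPM at P7 and 0.759, 1.01 and 1.75 TPM at P3 (log2 fold change 2.13 ± 0.28, adjusted p = 0.000247). The serotonin receptor Htr7 varied more among the P7 libraries, at 39.3, 25.5 and 13.1 TPM at P7 and 3.17, 7.798 and 4.78 TPM at P3 (log2 fold change 2.05 ± 0.41, adjusted p = 0.00329). Of 16 neuropeptide and granin genes 9 rose and 1 fell, with a median of 0.86, and the fall was near the share of all tested genes. Scg2 stood at 112, 105 and 140.2 TPM at P7 and 9.98, 24.2 and 37.8 TPM at P3 (log2 fold change 2.43 ± 0.34, adjusted p = 0.000309). Vgf, a peptide precursor induced by neurotrophins, stood at 33.4, 15.9 and 27.9 TPM at P7 and 4.12, 6.69 and 4.63 TPM at P3 (log2 fold change 2.08 ± 0.28, adjusted p = 0.00028). In Scg2 and Vgf every P7 library was above every P3 library. Nrn1, which encodes a surface protein that promotes neurite growth, stood at 17.7, 14.7 and 28.4 TPM at P7 and 3.44, 8.78 and 3.93 TPM at P3 (log2 fold change 1.78 ± 0.35, adjusted p = 0.00323). Ostn, which encodes the secreted peptide osteocrin, was the member that fell, at 18.3, 8.32 and 4.58 TPM at P7 and 48.95, 37.3 and 58.4 TPM at P3 (log2 fold change -2.27 ± 0.58, adjusted p = 0.0129). Its call was lost without P7 replicate 3 or P3 replicate 3 (-2.13 to -1.85, adjusted p = 0.0504 to 0.0549).

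Of 17 immediate early genes, which are induced by activity and also by tissue handling, 6 rose and none fell, with a median of 0.54. Egr3 stood at 26.1, 28.4 and 26.9 TPM at P7 and 6.47, 5.91 and 5.59 TPM at P3 (log2 fold change 2.01 ± 0.25, adjusted p = 0.000131). Egr4 stood at 13.3, 9.01 and 10.05 TPM at P7 and 1.602, 1.45 and 0.765 TPM at P3 (log2 fold change 2.38 ± 0.29, adjusted p = 0.00013). Both lay apart between the ages, with even levels among the P7 libraries. Egr1 stood at 91.5, 72.7 and 53.6 TPM at P7 and 16.2, 45.5 and 24.6 TPM at P3 (log2 fold change 1.39 ± 0.32, adjusted p = 0.00751). Without both libraries that stood apart 2 of these genes were called higher, and Egr1 was not (0.88, adjusted p = 0.112). Of 14 Krüppel-like factors 3 rose (Klf5, Klf16 and Klf13), against 16.0% of all tested genes. Under quantile normalization 1 of the 3 was called. The Klf13 call was lost without P7 replicate 3 or P3 replicate 3 (0.55 to 0.59, adjusted p = 0.0599 to 0.0629).

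Axon guidance genes were called in both directions, with falls near the share of all tested genes. Of 47 tested 18 rose and 4 fell, against 16.0% and 7.14% of all tested genes. Their median was 0.30, close to the 0.18 of all genes. Of the 47, 1 passed the filter through the P7 libraries alone. Sema6a, a transmembrane semaphorin, stood at 40.3, 23.3 and 20.5 TPM at P7 and 5.12, 8.94 and 4.75 TPM at P3 (log2 fold change 1.98 ± 0.27, adjusted p = 0.00026). Ephb3, a receptor for B ephrins, stood at 16.97, 12.5 and 12.3 TPM at P7 and 3.397, 8.08 and 2.79 TPM at P3 (log2 fold change 1.47 ± 0.29, adjusted p = 0.00331). Efna5, a repulsive ligand of Eph receptors, stood at 29.2, 29.01 and 30.2 TPM at P7 and 7.43, 12.5 and 15.5 TPM at P3 (log2 fold change 1.3 ± 0.29, adjusted p = 0.00648). All were higher in every P7 library. By contrast the ephrin gene Efna4 stood at 3.13, 5.55 and 2.63 TPM at P7 and 14.1, 10.03 and 9.72 TPM at P3 (log2 fold change -1.39 ± 0.30, adjusted p = 0.00508). The netrin receptor Unc5c stood at 3.82, 5.33 and 3.71 TPM at P7 and 10.5, 10.6 and 10.6 TPM at P3 (log2 fold change -1.14 ± 0.24, adjusted p = 0.00451). Cntn2, an adhesion molecule of growing axons, fell by 0.75 on the log2 scale (adjusted p = 0.0154), and its call was lost without P7 replicate 1 or P7 replicate 2 (-0.7 to -0.7, adjusted p = 0.0517 to 0.052). Members called higher numbered 11 without P3 replicate 1, 11 without P3 replicate 3 and 3 without both libraries that stood apart. Members called lower numbered 2 without P7 replicate 1 and 2 without P7 replicate 2. Under quantile normalization 13 rose and 7 fell, and under median-ratio scaling 13 and 6.

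Neurofilament genes rose. Of 11 neurofilament and microtubule-associated genes 6 rose and 1 fell, with a median of 0.56. Nefl, the light neurofilament of mature axons, stood at 129, 149 and 218 TPM at P7 and 10.5, 22.5 and 12.4 TPM at P3 (log2 fold change 3.4 ± 0.27, adjusted p = 4.82e-06). Nefm, the medium chain, stood at 26.1, 38.2 and 55.2 TPM at P7 and 11.4, 10.7 and 8.68 TPM at P3 (log2 fold change 1.8 ± 0.29, adjusted p = 0.000913). Nefh, the heavy chain, stood at 7.09, 7.02 and 5.21 TPM at P7 and 0.804, 1.69 and 1.66 TPM at P3 (log2 fold change 1.65 ± 0.24, adjusted p = 0.000475). All chains of the neurofilament triplet were thus raised without overlap, while Ina, the internexin of young neurons, stood at 131, 151 and 152 TPM at P7 and 107, 125 and 121 TPM at P3 and was not called. Map7 and Map4, which bind microtubules, rose by 1.96 ± 0.28 and 0.83 ± 0.16, and Map6, which stabilizes them, by 0.56 ± 0.19 (adjusted p = 0.0485). The Map6 call was lost without P7 replicate 1, P7 replicate 2, P7 replicate 3, P3 replicate 1 or P3 replicate 3 (0.35 to 0.59, adjusted p = 0.0862 to 0.193). Mapt, which encodes tau, was the member that fell, at 376, 394 and 406 TPM at P7 and 651, 546 and 558 TPM at P3 (log2 fold change -0.57 ± 0.14, adjusted p = 0.00907), and the count of members that fell was 2 without P3 replicate 1 and under median-ratio scaling. Map2, of dendrites, stood at 85.8, 56.99 and 75.1 TPM at P7 and 68.03, 139.7 and 99.4 TPM at P3 and was not called.

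Genes of immature neurons fell, and they held some of the most abundant transcripts. Of 26 listed, 14 fell and 2 rose, with a median of -0.44. Their summed level was 37389, 47643 and 48566 TPM at P7 and 68968, 60112 and 61189 TPM at P3, without overlap. Tuba1a, the tubulin of growing neurons, stood at 10874, 16807 and 16461 TPM at P7 and 24822, 22011 and 21409 TPM at P3 (log2 fold change -0.65 ± 0.17, adjusted p = 0.0125). Stmn1, a protein that destabilizes microtubules, stood at 5277, 7234 and 7450.4 TPM at P7 and 12564, 9887 and 11219 TPM at P3 (log2 fold change -0.76 ± 0.15, adjusted p = 0.0032). Tmsb10, a thymosin that binds actin monomers, stood at 1684, 2049.8 and 2182 TPM at P7 and 5928, 3161 and 4959 TPM at P3 (log2 fold change -1.21 ± 0.19, adjusted p = 0.000622). Each of these was lower in every P7 library. The transcription factor genes Sox4 and Sox11, which act in newborn neurons, fell as well. Sox4 stood at 82.2, 88.97 and 93.4 TPM at P7 and 341, 274 and 276 TPM at P3 (log2 fold change -1.74 ± 0.12, adjusted p = 1.62e-06). Sox11 stood at 14.7, 19.05 and 18.2 TPM at P7 and 48.9, 55.01 and 58.3 TPM at P3 (log2 fold change -1.59 ± 0.15, adjusted p = 2.06e-05). Draxin, a repulsive axon guidance protein, fell by 1.47 on the log2 scale. Igfbpl1, which is enriched in newborn neurons, stood at 3.59, 1.496 and 1.401 TPM at P7 and 21.8, 30.5 and 18.99 TPM at P3 (log2 fold change -3.01 ± 0.31, adjusted p = 3.36e-05). Neurod2 stood at 68.7, 78.1 and 83.6 TPM at P7 and 193, 166 and 176 TPM at P3 (log2 fold change -1.21 ± 0.12, adjusted p = 3.36e-05), and fell, whereas its relative Neurod1 stood at 49.1, 91.3 and 102 TPM at P7 and 22.6, 32.95 and 38.3 TPM at P3 and rose (log2 fold change 1.3 ± 0.29, adjusted p = 0.00648). Dclk1, a kinase of microtubules, rose as well (0.91 ± 0.21). Dcx, the doublecortin of migrating neurons, stood at 74.3, 76.9 and 91.8 TPM at P7 and 89.1, 128 and 118 TPM at P3 and did not pass the threshold (log2 fold change -0.45 ± 0.16, adjusted p = 0.0618). The call of Tuba1a was lost without P3 replicate 1 (-0.59, adjusted p = 0.0501) and under quantile normalization, which gives equal values to the highest gene of each library, and Tuba1a was the highest of the tested genes in all 6. In the fit of the layer 3 groups alone 9 members fell. Outside this list, Tmsb4x, another thymosin, stood at 6915, 7295 and 6197 TPM at P7 and 10842, 9366 and 12968 TPM at P3 (log2 fold change -0.69 ± 0.16, adjusted p = 0.00696), and Ftl1, the ferritin light chain, at 2143, 2711 and 2009.5 TPM at P7 and 5645, 4217 and 5272 TPM at P3 (log2 fold change -1.14 ± 0.17, adjusted p = 0.000411).

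Upper-layer identity genes were, on balance, lower at P7. Of 18 listed, 8 fell and 3 rose, with a median of -0.46, and their summed level overlapped between the ages (2837, 3215 and 3375 TPM at P7 and 3113, 3444 and 3161 TPM at P3). Cux1, a homeobox gene of dendrite growth, stood at 109, 138 and 121 TPM at P7 and 256, 241 and 154 TPM at P3 (log2 fold change -0.79 ± 0.17, adjusted p = 0.00493). Cux2, with the levels given above, fell by 0.80 on the log2 scale (adjusted p = 0.0066). Inhba, which encodes an activin subunit, stood at 14.9, 13.4 and 13.9 TPM at P7 and 44.3, 44.1 and 47.97 TPM at P3 (log2 fold change -1.62 ± 0.16, adjusted p = 3.22e-05). Pou3f1, a POU-domain factor, stood at 78.4, 91.1 and 84.1 TPM at P7 and 303, 160.1 and 179 TPM at P3 (log2 fold change -1.28 ± 0.22, adjusted p = 0.00121). The related Pou3f3 stood at 26.1, 22.1 and 23.9 TPM at P7 and 47.4, 51.1 and 57.8 TPM at P3 (log2 fold change -1.08 ± 0.13, adjusted p = 0.000138). Lmo4, a LIM-domain cofactor that separates cortical projection classes, went the other way, at 462, 405 and 512 TPM at P7 and 101, 132 and 153 TPM at P3 (log2 fold change 1.84 ± 0.27, adjusted p = 0.000457). Plxnd1, a plexin, and Unc5d, a netrin receptor of upper layers, rose by 0.74 ± 0.19 and 0.77 ± 0.22. The Plxnd1 call was lost without P7 replicate 2 or P7 replicate 3 (0.63 to 0.7, adjusted p = 0.0515 to 0.0655) and the Unc5d call without P7 replicate 2, P7 replicate 3, P3 replicate 1 or P3 replicate 3 (0.67 to 0.74, adjusted p = 0.0734 to 0.0935). Members called higher numbered 1 without P7 replicate 2, 1 without P7 replicate 3 and 5 without P3 replicate 2.

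Genes known from adult layers 2 and 3 rose. Of 8 tested markers of adult layer 2/3 subtypes 4 rose and none fell, with a median of 1.14. Calb1, a calcium-binding protein, stood at 39.3, 54.01 and 63.9 TPM at P7 and 2.35, 10.8 and 4.87 TPM at P3 (log2 fold change 3.09 ± 0.35, adjusted p = 6.84e-05). Cdh13, a cadherin held by a lipid anchor, stood at 119, 112 and 119 TPM at P7 and 22.3, 40.4 and 28.1 TPM at P3 (log2 fold change 1.95 ± 0.20, adjusted p = 3.17e-05). Wfs1, a protein of the endoplasmic reticulum, stood at 19.3, 17.04 and 38.03 TPM at P7 and 3.49, 5.11 and 0.508 TPM at P3 (log2 fold change 2.81 ± 0.45, adjusted p = 0.000817). In all of these the ages lay apart. Otof, whose protein otoferlin acts in vesicle fusion, was under 0.3 TPM in every P3 library (2.27, 2.97 and 1.88 TPM at P7 and 0.169, 0.159 and 0.284 TPM at P3), and the other 4 tested markers were not called. Otof passed the filter through the P7 libraries alone. Adamts2, Agmat, Macc1 and Trpc6, also on that list, did not pass the filter.

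Of 6 tested layer 4 genes 4 rose (2 under quantile normalization), with a median of 0.95. Pamr1 stood at 23.1, 30.5 and 34.3 TPM at P7 and 3.48, 5.67 and 3.94 TPM at P3 (log2 fold change 2.5 ± 0.22, adjusted p = 1.49e-05). Whrn, which encodes the scaffold whirlin, stood at 6.15, 6.29 and 16.9 TPM at P7 and 1.52, 1.66 and 0.652 TPM at P3 (log2 fold change 2.13 ± 0.40, adjusted p = 0.00215), while Rorb was not called (log2 fold change 0.21 ± 0.34, adjusted p = 0.697). The call of the potassium channel gene Kcnh5 was lost without P7 replicate 1, P7 replicate 2, P7 replicate 3 or P3 replicate 1 (0.66 to 1.13, adjusted p = 0.0501 to 0.101), and that of Cyp39a1, a sterol hydroxylase, without P7 replicate 1, P7 replicate 2, P3 replicate 1 or P3 replicate 3 (0.62 to 0.95, adjusted p = 0.069 to 0.182). Of 16 deep-layer genes 2 rose and 1 fell, against 16.0% and 7.14% of all tested genes, while 1 rose and 4 fell under median-ratio scaling and 1 rose and 3 fell under quantile normalization. Pcp4, a calmodulin-binding peptide, rose to 178, 85.5 and 339 TPM at P7, against 43.6, 56.2 and 66.4 TPM at P3 (log2 fold change 1.65 ± 0.38, adjusted p = 0.00796). Bcl6, a transcriptional repressor that promotes neuronal differentiation, fell to 16.7, 11.6 and 10.7 TPM at P7, against 33.8, 39.6 and 27.8 TPM at P3 (log2 fold change -1.32 ± 0.22, adjusted p = 0.00112). The remaining deep-layer rise was Ldb2, a LIM-domain-binding cofactor, whose call was lost without P7 replicate 1, P7 replicate 3, P3 replicate 1 or P3 replicate 3 (0.98 to 1.16, adjusted p = 0.0868 to 0.139). Deep-layer genes called lower numbered 3 without P7 replicate 1.

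Among the largest falls were secreted and developmental genes. Ly6g6e, of the Ly6 surface protein family, stood at 1.09, 0.604 and 0.582 TPM at P7 and 36.2, 20.9 and 25.3 TPM at P3 (log2 fold change -3.99 ± 0.26, adjusted p = 1.06e-06). Fst, the activin-binding follistatin, stood at 1.36, 0.646 and 2.18 TPM at P7 and 17.2, 35.1 and 19.99 TPM at P3 (log2 fold change -3.38 ± 0.35, adjusted p = 3.39e-05). Msx3, a homeobox gene, stood at 2.32, 1.51 and 0.796 TPM at P7 and 21.7, 23.2 and 29.4 TPM at P3 (log2 fold change -3.37 ± 0.35, adjusted p = 3.61e-05). All P3 libraries were high in these. Cdkn1c, an inhibitor of the cell cycle, stood at 10.1, 8.35 and 17.7 TPM at P7 and 156, 78.04 and 55.3 TPM at P3 (log2 fold change -2.83 ± 0.39, adjusted p = 0.000285). Trp53i11, a gene induced by p53, stood at 13.7, 14.6 and 9.07 TPM at P7 and 95.9, 85.1 and 68.9 TPM at P3 (log2 fold change -2.66 ± 0.20, adjusted p = 3.59e-06). The claudin gene Cldn3 stood at 2.95, 5.501 and 5.28 TPM at P7 and 43.5, 30.2 and 26.6 TPM at P3 (log2 fold change -2.63 ± 0.28, adjusted p = 3.95e-05).

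In 5 of the other 6 of the 12 largest falls P3 replicate 1 stood well above the other P3 libraries. Among the falls given above, that library was also the highest at P3 in Ly6g6e, Cdkn1c, Trp53i11 and Cldn3, by a smaller factor. Ptgds, a prostaglandin synthase abundant in the meninges and choroid plexus, stood at 61.8, 28.2 and 109 TPM at P7 and 6612, 446 and 189 TPM at P3 (log2 fold change -3.81 ± 1.27, adjusted p = 0.0453). Igf2, an insulin-like growth factor made by meninges and choroid plexus, stood at 2.31, 1.38 and 1.54 TPM at P7 and 80.3, 11.5 and 8.46 TPM at P3 (log2 fold change -2.97 ± 0.62, adjusted p = 0.00437). Fgfbp1, which releases fibroblast growth factors from the matrix, stood at 1.89, 0.169 and 0 TPM at P7 and 45.1, 5.805 and 3.76 TPM at P3 (log2 fold change -2.93 ± 0.72, adjusted p = 0.0107). These all had their highest value in P3 replicate 1. So had Apod, which encodes apolipoprotein D, at 4.09, 3.87 and 5.12 TPM at P7 and 123.4, 20.9 and 19.5 TPM at P3 (log2 fold change -2.84 ± 0.62, adjusted p = 0.00569). So had Slc6a13, a GABA transporter of the meninges, at 2.702, 1.25 and 2.82 TPM at P7 and 65.6, 12.3 and 6.504 TPM at P3 (log2 fold change -2.57 ± 0.69, adjusted p = 0.0175). The sixth was Igfbpl1, described with the immature neuron genes. Choroid plexus and meningeal markers were high in the same P3 replicate 1, and their part in these falls was not tested. Without that library the log2 fold changes were -2.31, adjusted p = 0.203 for Ptgds, -1.66, adjusted p = 0.0695 for Slc6a13, -1.92, adjusted p = 0.0325 for Fgfbp1, -2.0, adjusted p = 0.00387 for Igf2 and -1.99, adjusted p = 0.0162 for Apod. Leaving out single libraries, the Ptgds call was lost without P7 replicate 1, P7 replicate 2, P7 replicate 3 or P3 replicate 1 (-4.27 to -2.31, adjusted p = 0.0585 to 0.203), and the Slc6a13 call without P7 replicate 2 or P3 replicate 1 (-2.32 to -1.66, adjusted p = 0.0617 to 0.0695).

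The broadest fall was that of ribosomal protein genes, whose products build the cytosolic ribosome. Of 79 tested 68 fell and none rose, with a median of -0.77, against falls in 7.14% of all tested genes. Their summed level was 13806, 15685 and 14782 TPM at P7 and 30446, 20421 and 28410.2 TPM at P3, without overlap and lowest at P3 in replicate 2. Rps19 stood at 258, 285 and 272 TPM at P7 and 784, 560.1 and 732 TPM at P3 (log2 fold change -1.33 ± 0.13, adjusted p = 2.71e-05). Rps16 stood at 128, 135 and 157 TPM at P7 and 353, 240.3 and 333 TPM at P3 (log2 fold change -1.12 ± 0.14, adjusted p = 0.000191). The fall was shared by both subunits but modest for each gene, since 6 of the 79 fell by at least 1 on the log2 scale. Rpl13 fell by 1.06 on the log2 scale. Of the 79, 50 were called lower without both libraries that stood apart. Ribosomal protein genes have many processed copies in the genome, and how reads shared with those copies were counted is not stated.

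Ribosomal protein messages are known to begin with a run of pyrimidines by which growth signals control their translation. The start regions of 4 genes of the group that fell are shown for that feature, in RefSeq on GRCm38.p6, 60 bases centred on the first listed start, with the motif CTTTCC in capitals. They are Rpl18 (chr7:45718041-45718100, plus strand), Rpl38 (chr11:114668550-114668609, plus strand), Rps27 (chr3:90213619-90213678, minus strand) and Rpl35 (chr2:39005102-39005161, minus strand).
Rpl18: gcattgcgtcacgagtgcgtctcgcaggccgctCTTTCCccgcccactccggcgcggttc
Rpl38: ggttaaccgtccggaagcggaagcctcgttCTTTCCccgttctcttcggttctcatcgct
Rps27: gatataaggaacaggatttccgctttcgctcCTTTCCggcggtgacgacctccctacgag
Rpl35: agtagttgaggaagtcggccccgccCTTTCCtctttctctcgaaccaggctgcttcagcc
On the strand of the gene, CTTTCC lay within 15 bases of the start in 8 of the 57 tested ribosomal protein genes that had a promoter in the table. The share was 1.30% of all 10974 tested genes with one, and 1.39% of all 27025 promoters. The 4 fell by 1.02 (Rpl18), 0.96 (Rpl38), 0.91 (Rps27) and 0.90 (Rpl35) on the log2 scale, and they were chosen after the values were seen, as the largest falls among the genes with the motif.

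Nuclear genes of the respiratory chain fell in part. Of 75 tested 29 fell and 1 rose, with a median of -0.35, and their summed level was 25159.6, 26789.8 and 26768 TPM at P7 and 38399, 26933 and 34631 TPM at P3. P3 replicate 2 lay near the P7 libraries, and P3 replicates 1 and 3 lay above them. Atp5e, a subunit of the ATP synthase, stood at 211, 304 and 244 TPM at P7 and 578, 357 and 452 TPM at P3 (log2 fold change -0.86 ± 0.18, adjusted p = 0.00432), and Ndufb7, a subunit of complex I, at 130.4, 163 and 140.0 TPM at P7 and 327, 187 and 232 TPM at P3 (log2 fold change -0.75 ± 0.17, adjusted p = 0.00623). The number called lower was 11, 17 and 15 without P7 replicates 1, 2 and 3, and 9, 53 and 9 without P3 replicates 1, 2 and 3. Without both libraries that stood apart it was 2. The member that rose was Ndufs1, of complex I, by 0.62 ± 0.16, and its call was lost without P7 replicate 3 or P3 replicate 1 (0.44 to 0.57, adjusted p = 0.0514 to 0.0526). Of 13 genes encoded in the mitochondria 4 fell (mt-Atp6, mt-Atp8, mt-Nd2 and mt-Nd4), with a median of -0.40, and 8 did under median-ratio scaling and 2 under quantile normalization. The ATP synthase subunit mt-Atp6 stood at 3216, 2695 and 2669 TPM at P7 and 3522, 3739.7 and 4948 TPM at P3 (log2 fold change -0.5 ± 0.13, adjusted p = 0.0145). The count of mitochondrially encoded genes that fell was 1 without P7 replicate 2, P7 replicate 3 or P3 replicate 3. It was 7 without P3 replicate 1 and 9 without both libraries that stood apart. The call of mt-Nd2 was lost without P7 replicate 1, P7 replicate 2, P7 replicate 3 or P3 replicate 3 (-0.51 to -0.3, adjusted p = 0.0565 to 0.0843), that of mt-Atp6 without P7 replicate 2, P7 replicate 3 or P3 replicate 3 (-0.46 to -0.35, adjusted p = 0.0555 to 0.0572), and that of mt-Atp8 without P7 replicate 2, P7 replicate 3 or P3 replicate 3 (-0.4 to -0.31, adjusted p = 0.064 to 0.0806).

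Glycolysis genes went the other way. Of 17 tested 8 rose and none fell, with a median of 0.34. Slc2a3, the neuronal glucose transporter, stood at 68.1, 48.8 and 61.5 TPM at P7 and 14.04, 20.6 and 13.4 TPM at P3 (log2 fold change 1.84 ± 0.21, adjusted p = 7.68e-05), and Eno2, the neuronal enolase, at 274, 295 and 276 TPM at P7 and 120.0, 122 and 105 TPM at P3 (log2 fold change 1.28 ± 0.18, adjusted p = 0.000355). Pfkp, a phosphofructokinase, stood at 202, 199 and 197 TPM at P7 and 57.3, 100.3 and 90.5 TPM at P3 (log2 fold change 1.3 ± 0.27, adjusted p = 0.0042). The count was 5 without P3 replicate 1, 5 without P3 replicate 3 and 5 under median-ratio scaling. Without both libraries that stood apart it was 4. Of 22 cholesterol synthesis genes 2 rose, Hmgcs1 among them, and 2 fell (Fdps and Mvk), with a median of 0.14. Of all tested genes 16.0% rose and 7.14% fell. Fdps, which makes farnesyl diphosphate, fell by 0.69 on the log2 scale (adjusted p = 0.000693). Hmgcs1, an early enzyme of the pathway, rose by 0.76 ± 0.23, and its call was lost without P7 replicate 2, P7 replicate 3 or P3 replicate 1 (0.45 to 0.72, adjusted p = 0.0767 to 0.101). Cholesterol genes called higher numbered 7 without P3 replicate 2, and 1 without P7 replicate 2, P7 replicate 3 or P3 replicate 1, and 1 under median-ratio scaling. The Mvk call was lost without P7 replicate 3 or P3 replicate 1 (-0.55 to -0.44, adjusted p = 0.0601 to 0.0648).

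**Figure D4:**
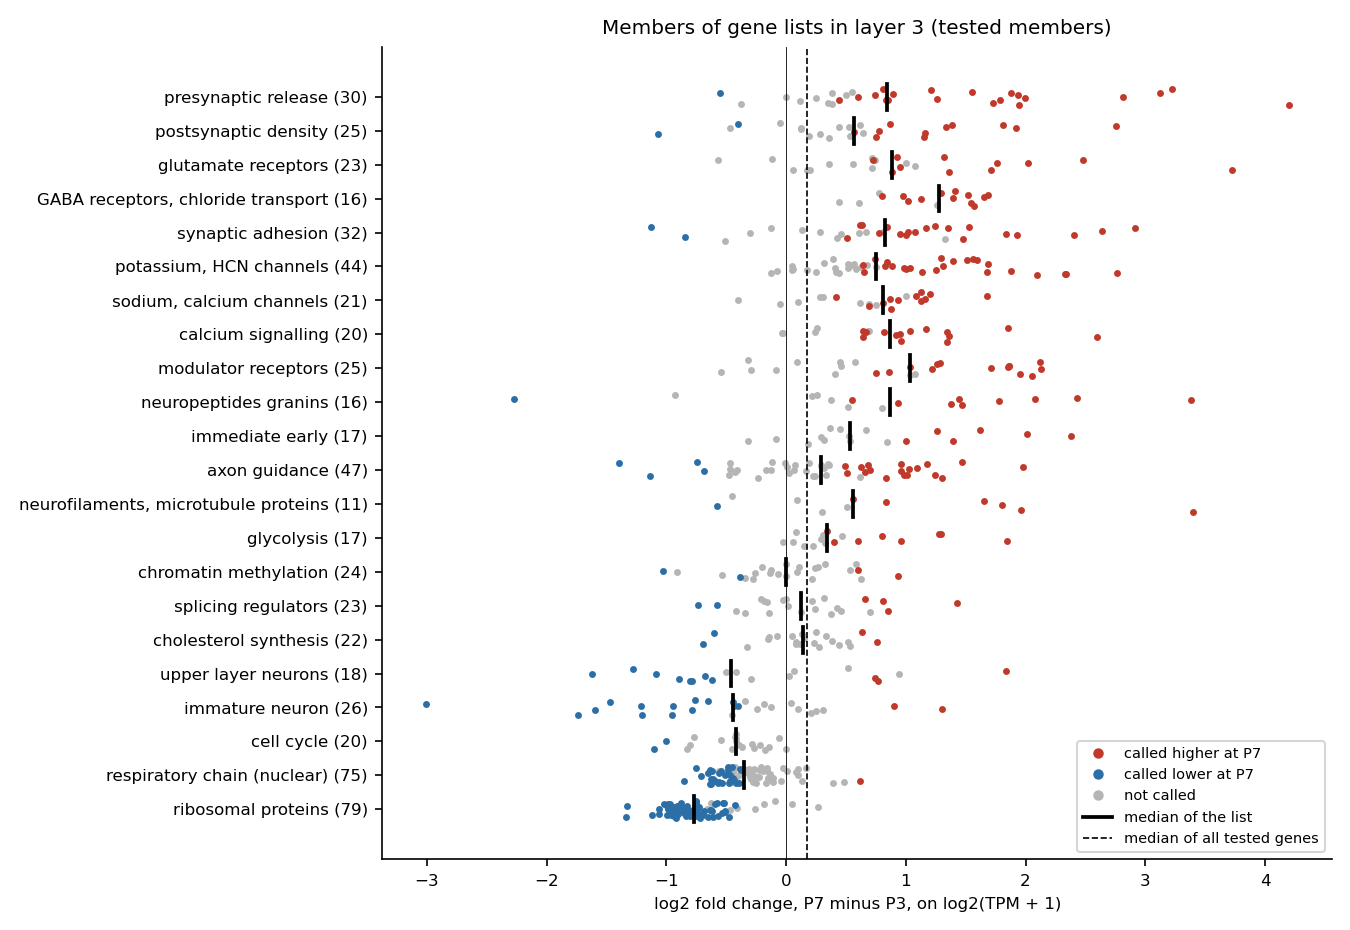
Log2 fold change, P7 minus P3, of the tested members of 22 gene lists in layer 3 (number of members in brackets), with members called higher in red, called lower in blue and not called in grey. The median of each list (black bar) lies right of the median of all tested genes (dashed line) for the synaptic, receptor and channel lists, and left of it for the immature neuron, respiratory chain and ribosomal protein lists.

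Regulators of chromatin and splicing moved in both directions. Of 24 chromatin and DNA methylation genes 2 rose (Dnmt3a and Smarca2) and 2 fell (Ezh2 and Dpf1), against 16.0% and 7.14% of all tested genes, and 1 rose and 4 fell under median-ratio scaling, 1 and 5 under quantile normalization. Dnmt3a, which methylates DNA anew in young neurons, stood at 36.7, 22.96 and 28.04 TPM at P7 and 11.4, 18.1 and 14.9 TPM at P3 (log2 fold change 0.93 ± 0.20, adjusted p = 0.00522), and Ezh2, the methyltransferase of Polycomb repression, at 14.9, 9.81 and 7.51 TPM at P7 and 15.1, 27.4 and 26.3 TPM at P3 (log2 fold change -1.03 ± 0.26, adjusted p = 0.0127). Actl6a and Actl6b, exchanged in the BAF complex when neurons leave the cell cycle, were not called, with 23.5 ± 3.86 TPM at P7 and 24.9 ± 5.44 TPM at P3 for Actl6a and 203 ± 48.7 TPM at P7 and 229 ± 23.1 TPM at P3 for Actl6b. The Ezh2 call was lost without P7 replicate 3 or P3 replicate 3 (-0.91 to -0.82, adjusted p = 0.0558 to 0.0559), the Smarca2 call without P7 replicate 2, P7 replicate 3, P3 replicate 1 or P3 replicate 3 (0.4 to 0.64, adjusted p = 0.0689 to 0.149), and the Dpf1 call when any single layer 3 library was left out (-0.44 to -0.33, adjusted p = 0.0563 to 0.143). Chromatin genes called lower numbered 0 without P7 replicate 3 or P3 replicate 3 and 1 without any other single library of layer 3. Those called higher numbered 4 without P3 replicate 2 and 1 without P7 replicate 2, P7 replicate 3, P3 replicate 1 or P3 replicate 3. Of 23 splicing regulators 4 rose (Mbnl2, Nova1, Celf6 and Celf4) and 2 fell (Srrm4 and Elavl3), and 2 rose and 4 fell under median-ratio scaling, while 2 rose under quantile normalization. Mbnl2, a factor of the postnatal splicing switch, stood at 41.1, 31.98 and 36.6 TPM at P7 and 8.78, 17.4 and 14.02 TPM at P3 (log2 fold change 1.42 ± 0.21, adjusted p = 0.000419), and Elavl3, an RNA-binding protein of neurons, at 65.7, 70.9 and 73.3 TPM at P7 and 117, 94.6 and 104 TPM at P3 (log2 fold change -0.58 ± 0.13, adjusted p = 0.00764). Splicing genes called higher numbered 2 without P7 replicate 1, P7 replicate 3, P3 replicate 1 or P3 replicate 3. Those called lower numbered 1 without any single layer 3 library other than P3 replicate 2. The Nova1 call was lost without P7 replicate 1, P7 replicate 2, P7 replicate 3, P3 replicate 1 or P3 replicate 3 (0.64 to 0.99, adjusted p = 0.0511 to 0.171). That of Celf6 was lost without P7 replicate 1, P7 replicate 3, P3 replicate 1 or P3 replicate 3 (0.68 to 0.78, adjusted p = 0.0847 to 0.123), and that of Srrm4 without P7 replicate 1, P7 replicate 2, P7 replicate 3, P3 replicate 1 or P3 replicate 3 (-0.78 to -0.62, adjusted p = 0.0661 to 0.129).

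Of 20 cell cycle genes 2 fell (Birc5 and Ube2c), with a median of -0.41, against 7.14% of all tested genes, and 4 fell under median-ratio scaling. The Ube2c call was lost without P7 replicate 3, P3 replicate 1 or P3 replicate 2 (-0.92 to -0.6, adjusted p = 0.064 to 0.116). Of 11 progenitor and radial glia genes 2 rose (Hopx and Hes1) and 2 fell (Nes and Vim), against 16.0% and 7.14%. Vim, an intermediate filament, stood at 22.4, 14.7 and 8.95 TPM at P7 and 27.7, 37.9 and 25.8 TPM at P3 with an adjusted p of 0.0496, and its call was lost without P7 replicate 2, P7 replicate 3, P3 replicate 1, P3 replicate 2 or P3 replicate 3 (-1.12 to -0.69, adjusted p = 0.0764 to 0.18). Progenitor genes called lower numbered 1 without any single layer 3 library other than P7 replicate 1. Of 9 motile cilium genes Dynlrb2 and Cfap126 fell, and 4 of the list fell under quantile normalization. The Dynlrb2 call was lost without P7 replicate 1 or P3 replicate 3 (-1.57 to -1.13, adjusted p = 0.052 to 0.0677), and the Cfap126 call without P3 replicate 1 (-1.17, adjusted p = 0.055). Of 7 perineuronal matrix genes 1 rose, against 16.0% of all tested genes. It was Hapln1, at 7.05, 2.63 and 2.14 TPM at P7 and 0.236, 0.8701 and 0.242 TPM at P3 (log2 fold change 1.67 ± 0.48, adjusted p = 0.0233). Hapln1 passed the filter through the P7 libraries alone, so its rise is given as a description. Its call was lost without P7 replicate 1, P3 replicate 1 or P3 replicate 3 (1.25 to 1.57, adjusted p = 0.0741 to 0.0986).

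The change in layer 3 was set against that in layer 2, measured in 6 other libraries. Lists of other cells moved differently there. In layer 2, all 9 motile cilium genes fell, with a median of -2.23, and 16 of 20 cell cycle genes, with a median of -1.26. In layer 3, 2 of 9 and 2 of 20 fell. Of the 4 tested sex-linked genes 3 rose in layer 2, with a median log2 fold change of 2.43. None was called in layer 3, where the median was -0.48. The difference between layers was called for none of them. The mix of male and female pups may thus have differed between the ages in the layer 2 pools. The parts of other cells and of that mix in the differences between layers were not tested. In layer 2, 2624 genes rose (16.2%) and 1532 fell (9.47%). Of the genes that rose in layer 3, 62.0% also rose in layer 2, and of those that rose in layer 2, 61.1% also rose in layer 3. Of the genes that fell in layer 3, 61.6% also fell in layer 2, and of those that fell in layer 2, 46.4% also fell in layer 3. Across genes, which are not independent replicates, the log2 fold changes of the layers correlated at a Pearson r of 0.635. The difference between the layers was itself called for 29 genes, 9 with a higher change in layer 3 (0.0556% of those tested) and 20 with a lower one (0.124%). At an unadjusted p under 0.05 the number was 1836. Of the 20, 19 rose in layer 2. The number of called differences ranged from 10 to 111 when single libraries were left out, with 10 without P7 layer 3 replicate 1 and 111 without P3 layer 3 replicate 2. In all settings that could be run, the differences of Nefl, Bcl6 and Vsnl1 were called. Those of Gm49719 and A830036E02Rik were too, but both genes passed the filter through the P3 libraries alone, where they are high in layer 3. Without both libraries that stood apart the differences of Cplx2, Dapk2, Dbp, Gm11615, Klf9, Krt12, Lmo4, Nr1d1, Rps2-ps13 and Rps24-ps3 were not called.

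**Figure D5:**
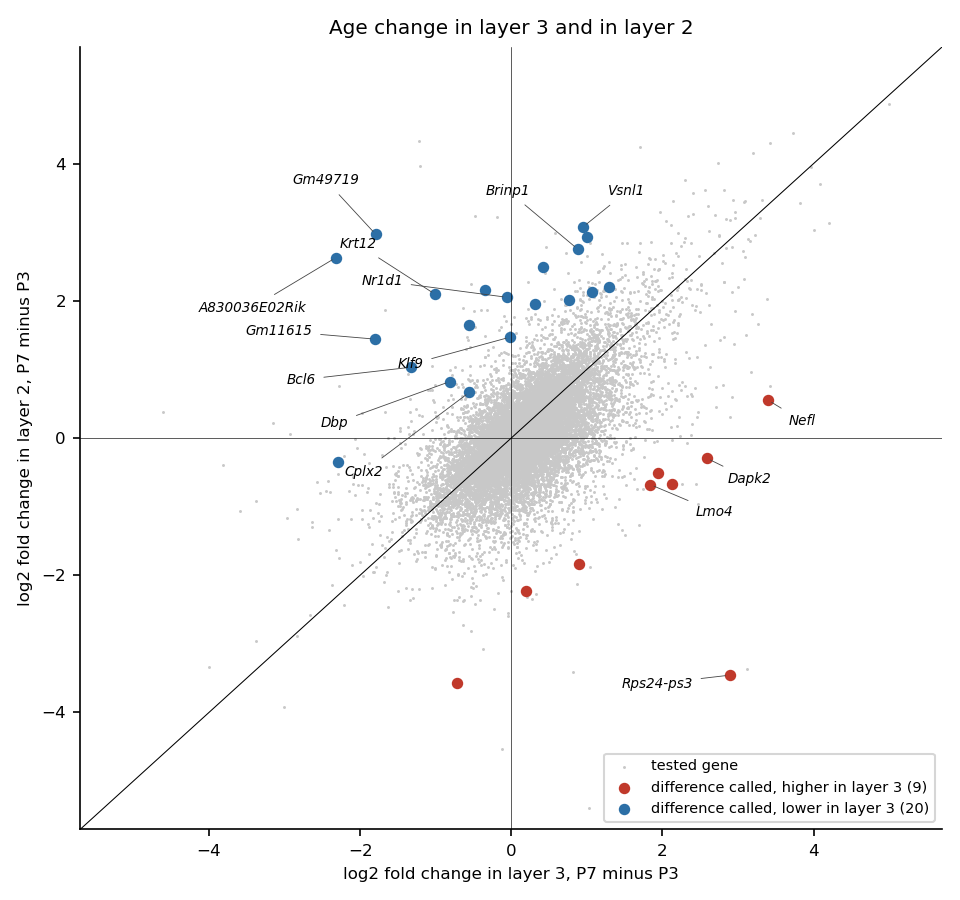
Log2 fold change, P7 minus P3, of each tested gene in layer 3 (horizontal) and in layer 2 (vertical). The 9 genes whose change was called higher in layer 3 are red and the 20 called lower in layer 3 are blue, and the diagonal marks equal changes.

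Neurofilament light stood out among the changes larger in layer 3. Nefl averaged 165 ± 46.7 TPM at P7 and 15.1 ± 6.42 TPM at P3 in layer 3 and 27.4 ± 5.696 TPM at P7 and 18.4 ± 3.403 TPM at P3 in layer 2, a difference between the age changes of 2.85 ± 0.38, adjusted p = 0.0109. In layer 2 Nefl was not called (log2 fold change 0.55 ± 0.27). Lmo4 averaged 459.7 ± 53.5 TPM at P7 and 129 ± 26.1 TPM at P3 in layer 3 and 188 ± 72.8 TPM at P7 and 289 ± 73.1 TPM at P3 in layer 2, with a difference of 2.52 ± 0.38, adjusted p = 0.0215. In layer 2 Lmo4 was not called and its log2 fold change was -0.68 ± 0.27. The Lmo4 difference was not called without replicate 1 of P7 layer 3, replicate 3 of P7 layer 3, replicate 1 of P3 layer 3 or replicate 3 of P3 layer 2 (2.32 to 2.51, adjusted p = 0.0516 to 0.0741). Dapk2, a death-associated protein kinase, averaged 8.19 ± 1.497 TPM at P7 and 0.535 ± 0.293 TPM at P3 in layer 3 and was at or under 1.32 TPM on average at both ages in layer 2 (2.88 ± 0.50, adjusted p = 0.0399). It passed the filter through the P7 libraries of layer 3 alone, so its difference is given as a description. The ribosomal pseudogene Rps24-ps3 rose in layer 3 and fell in layer 2 (difference 6.35 ± 0.91, adjusted p = 0.0142). For Rps2-ps13, which fell in layer 2 and was not called in layer 3, the difference was 2.85 ± 0.48, adjusted p = 0.0399. The Dapk2 difference was not called in 10 of the 12 fits that left out 1 library (2.55 to 3.04, adjusted p = 0.0528 to 0.109), that of Rps24-ps3 without replicate 1 of P7 layer 3, replicate 3 of P3 layer 3 or replicate 3 of P3 layer 2 (6.0 to 6.33, adjusted p = 0.0536 to 0.0607), and that of Rps2-ps13 in 9 of the 12 fits that left out 1 library (2.61 to 3.05, adjusted p = 0.0624 to 0.146). The levels of these pseudogenes depend on how reads shared with the parent genes were counted.

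Genes of transcription factors and the calcium sensor Vsnl1 were among the 20 with a lower age change in layer 3 than in layer 2. Bcl6 fell in layer 3 (12.998 ± 3.24 TPM at P7 and 33.7 ± 5.87 TPM at P3) and rose in layer 2 (23.7 ± 1.24 TPM at P7 and 11.3 ± 2.89 TPM at P3), a difference of -2.35 ± 0.31, adjusted p = 0.0109. Dbp, a transcription factor of clock output, fell in layer 3 (36.4 ± 4.08 TPM at P7 and 65.5 ± 13.6 TPM at P3) and rose in layer 2 (27.3 ± 1.52 TPM at P7 and 15.3 ± 3.97 TPM at P3), a difference of -1.64 ± 0.29, adjusted p = 0.0416. Nr1d1, a repressor in the circadian clock, averaged 79.02 ± 9.34 TPM at P7 and 82.04 ± 8.75 TPM at P3 in layer 3 and 42.1 ± 2.997 TPM at P7 and 9.73 ± 3.36 TPM at P3 in layer 2 (-2.11 ± 0.28, adjusted p = 0.0109). Klf9, a Krüppel-like factor induced by thyroid hormone and glucocorticoids, averaged 77.6 ± 2.18 TPM at P7 and 79.1 ± 12.5 TPM at P3 in layer 3 and 78.8 ± 2.37 TPM at P7 and 28.1 ± 4.92 TPM at P3 in layer 2 (-1.49 ± 0.21, adjusted p = 0.0129). Nr1d1 and Klf9 rose in layer 2 and were not called in layer 3. Vsnl1, a neuronal calcium sensor, averaged 748 ± 113 TPM at P7 and 383 ± 15.8 TPM at P3 in layer 3 and 684 ± 61.3 TPM at P7 and 80.95 ± 16.5 TPM at P3 in layer 2 (-2.13 ± 0.22, adjusted p = 0.00135). Brinp1, an inhibitor of neuronal cell cycle entry, averaged 237 ± 30.6 TPM at P7 and 130.1 ± 29.4 TPM at P3 in layer 3 and 146 ± 24.4 TPM at P7 and 20.7 ± 3.18 TPM at P3 in layer 2 (-1.87 ± 0.26, adjusted p = 0.0129). Both genes rose in each layer. Cplx2 fell in layer 3, a call lost without P3 replicate 3 as given above, and rose in layer 2 (-1.22 ± 0.21, adjusted p = 0.0399). The Dbp difference was not called in 9 of the 12 fits that left out 1 library (-1.71 to -1.42, adjusted p = 0.0677 to 0.159), that of Cplx2 in 10 of the 12 fits that left out 1 library (-1.28 to -1.09, adjusted p = 0.0554 to 0.146), that of Klf9 without P7 layer 3 replicate 1 (-1.47, adjusted p = 0.0558) and without both libraries that stood apart (-1.47, adjusted p = 0.0826), and that of Brinp1 without replicate 1 of P7 layer 3 or replicate 3 of P7 layer 2 (-1.83 to -1.77, adjusted p = 0.0515 to 0.0561). The Nr1d1 difference was not called without both libraries that stood apart (-2.09, adjusted p = 0.052). The genes Nr1d1, Klf9, Vsnl1 and Brinp1 were chosen after their values were seen. Of the 15 tested clock genes 4 rose in layer 3 (Bhlhe40, Rora, Cry2 and Tef) and Dbp fell. Over all tested genes the shares were 16.0% and 7.14%. The Dbp call was lost without P7 replicate 1, P3 replicate 1 or P3 replicate 3 (-0.73 to -0.72, adjusted p = 0.0505 to 0.0547), and the Rora call without P7 replicate 2 or P3 replicate 1 (0.84 to 1.03, adjusted p = 0.0631 to 0.0773). No source used here gives the hour of collection, so it cannot be told apart from age or layer.

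Among the genes whose age change was lower in layer 3, predicted or rarely studied genes had large differences. The long noncoding RNA A830036E02Rik averaged 0.388 ± 0.339 TPM at P7 and 6.98 ± 5.81 TPM at P3 in layer 3 and 7.98 ± 3.45 TPM at P7 and 0.407 ± 0.357 TPM at P3 in layer 2 (-4.95 ± 0.64, adjusted p = 0.0109). Gm49719 averaged 0.263 ± 0.2403 TPM at P7 and 3.51 ± 1.64 TPM at P3 in layer 3 and 10.3 ± 3.22 TPM at P7 and 0.411 ± 0.163 TPM at P3 in layer 2 (-4.76 ± 0.44, adjusted p = 0.000963). Gm11615 and Krt12, a keratin gene, differed by -3.25 ± 0.53, adjusted p = 0.0334 and -3.10 ± 0.56, adjusted p = 0.0453. The Gm11615 difference was not called in 9 of the 12 fits that left out 1 library (-3.37 to -2.88, adjusted p = 0.0512 to 0.117), and that of Krt12 in 10 of the 12 fits that left out 1 library (-3.36 to -2.67, adjusted p = 0.0624 to 0.159). A830036E02Rik and Gm49719 entered the test through the P3 libraries of layer 3, so their differences are given as a description. A830036E02Rik, Gm49719 and Gm11615 averaged at most 10.3 TPM in any group and under 1 TPM in some, so the +1 of the scale weighs on their fold changes. Krt12 averaged 5.24 ± 0.79 TPM at P7 and 12.8 ± 7.84 TPM at P3 in layer 3, where its age change was not called (adjusted p = 0.0808). In layer 2 it averaged 8.59 ± 2.63 TPM at P7 and 1.29 ± 0.82 TPM at P3.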

How the data were processed

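The deposited table holds TPM that the authors computed for 56734 genes in 12 libraries. Per the submitters' processing notes, HISAT2, StringTie and featureCounts were used with GRCm39, and versions, strand setting and the treatment of shared reads are not given in the sources used here. Each column summed to 1000000, so depth is unknown. No column lacked a sample. The 16176 genes at or above 1 TPM in at least 3 of the 6 layer 3 libraries were transformed to log2(TPM + 1). Limma-trend (limma 3.58.1, R 4.3.3) was fitted with 1 mean per group over all 12 libraries, which leaves 8 residual degrees of freedom and assumes that the groups share 1 spread. P-values were adjusted by Benjamini and Hochberg over all tested genes. The difference between layers was the contrast of the age changes, which share no library. The fit was also run on simulated data with independent normal noise, few changed genes, no outlying library and no shift of the median. The real libraries differ in these respects, so that run does not test the calls given here.

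Genes were named by rule, and a few that it named are not reported here. The rule took up to 12 per direction with the largest called change, apart in range, at 5 TPM or more in the higher group and not of predicted name, and up to 6 per direction by TPM difference. Added were up to 4 called members per direction of each list, other members of short lists, up to 4 per direction with a called difference between layers, identity checks and subunit pairs. The members and the 39 lists were chosen with earlier results of these data known. Promoters came from RefSeq (GRCm38.p6). No coordinates of the deposited genes were used, and raw reads were not used here. Alternatives were other pseudocounts, filters and scalings, removal of abundant gene classes, robust moderation, array weights, layer 3 alone, a replicate block, a fold threshold, and libraries left out.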

Additional observations from a re-analysis of the deposited data

Results flagged for a closer look

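The age changes of 16 named genes differed between the layers by the test of the difference itself (limma's moderated test, adjusted over 16176 genes), given here as the log2 fold change in layer 3 minus that in layer 2. It was higher in layer 3 for Rps24-ps3 (6.35 ± 0.91, adjusted p = 0.0142), Dapk2 (2.88 ± 0.50, adjusted p = 0.0399), Rps2-ps13 (2.85 ± 0.48, adjusted p = 0.0399), Nefl (2.85 ± 0.38, adjusted p = 0.0109) and Lmo4 (2.52 ± 0.38, adjusted p = 0.0215). It was lower in layer 3 for A830036E02Rik (-4.95 ± 0.64, adjusted p = 0.0109), Gm49719 (-4.76 ± 0.44, adjusted p = 0.000963), Gm11615 (-3.25 ± 0.53, adjusted p = 0.0334) and Krt12 (-3.10 ± 0.56, adjusted p = 0.0453). It was also lower for the clock genes Nr1d1 (-2.11 ± 0.28, adjusted p = 0.0109) and Dbp (-1.64 ± 0.29, adjusted p = 0.0416), for Bcl6 (-2.35 ± 0.31, adjusted p = 0.0109) and Klf9 (-1.49 ± 0.21, adjusted p = 0.0129), and for the neuronal genes Vsnl1 (-2.13 ± 0.22, adjusted p = 0.00135), Brinp1 (-1.87 ± 0.26, adjusted p = 0.0129) and Cplx2 (-1.22 ± 0.21, adjusted p = 0.0399). Dapk2 passed the filter through the P7 libraries of layer 3 alone, and A830036E02Rik and Gm49719 through the P3 libraries alone. The differences of these genes are given as a description. Without both libraries that stood apart, the differences of Cplx2, Dapk2, Dbp, Gm11615, Klf9, Krt12, Lmo4, Nr1d1, Rps2-ps13 and Rps24-ps3 were not called. Single libraries ended several of these calls too, as given above. Groups of 3 libraries are too small for a test of single outlying libraries.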

How the results depend on the processing

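Against 2586 genes higher and 1155 lower, array weights gave 4825 and 2265, the fit of the layer 3 groups alone 1613 and 626, and a minimum log2 fold change of 1 gave 1178 and 302. Genes lower numbered 1784 under median-ratio scaling and 1830 under quantile normalization. Without both libraries that stood apart the counts were 1191 and 620, with 10 differences between layers. When 1 library was left out, genes higher ranged from 1621 to 3895, genes lower from 765 to 1422, and differences between layers from 10 to 111. Against 29 differences there were 14 at a pseudocount of 0.1, 16 without a filter, 40 under median-ratio scaling, 45 under quantile normalization and 935 with array weights. Among the genes named here, the direction reversed only for genes that were not called. When 1 library was left out, log2 fold changes ranged from -0.263 to 0.389 for Bcl11b, from -0.242 to 0.53 for Rorb, from -0.252 to 0.0516 for Actl6a, from -0.333 to 0.0148 for Actl6b, from -0.0434 to 0.427 for Fezf2, from -0.125 to 0.0993 for Klf9 and from -0.136 to 0.0458 for Nr1d1. The value was with median-ratio scaling -0.124 for Bcl11b, with quantile normalization -0.205 for Bcl11b and -0.0678 for Fezf2, with array weights -0.281 for Rorb, and with both libraries left out 0.0961 for Actl6b and -0.394 for Bcl11b and -0.0659 for Rorb. The causes of these changes were not tested.

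A fit with the replicate number as a block gave 2366 genes higher, 1069 lower and 30 differences, of which 18 were among the 29. Within layer 3, the deviations of same-numbered P7 and P3 libraries correlated at -0.0922, -0.0388 and 0.038. Pairs with different numbers gave -0.126 to 0.141. Whether same-numbered libraries shared a batch was not tested, and pairing between the layers was not checked. Under the block the age calls of Dpf1, Grin2a, Map6, Nova1 and Slc12a2 were lost, and the differences of Dapk2, Dbp, Gm11615, Krt12 and Rps2-ps13.

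Depth and counting error are unknown, so low TPM values carry an error that cannot be given. Each group has 3 pools of pups of 1 genotype, age is compared at 2 points, and the sorted cells carry RNA of other cell types in amounts that differ between libraries. Levels are shares of a total and say nothing of RNA per cell.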
